A study of Mus musculus with 9 samples.

Results

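The genes described here encode the ligands and receptors of the vascular endothelial growth factor (VEGF) family. They are 4 ligand genes (Vegfa, Vegfb, Vegfc and Pgf), 2 receptor tyrosine kinase genes (Flt1 and Kdr) and 2 neuropilin genes (Nrp1 and Nrp2). Each was read from the array's transcript cluster, a group of probes for one transcript region, whose single annotated symbol is that gene. All 8 were found, with 1 cluster each, among 22180 genes with such a cluster. RNA was measured on 9 Affymetrix Mouse Gene 2.0 ST arrays, 1 per sample, of primary calvarial osteoblasts, bone-forming cells released by enzyme from the skulls of C57BL/6J mouse pups 7 to 10 days old. At passage 2 the cells were differentiated from day 3, kept without serum for 24 h from day 10, and then treated for 4 h in serum-free medium. The groups, of 3 arrays each, were 100 nM human parathyroid hormone (1-34), written hPTH(1-34); 1 µM of the D-Trp12,Tyr34 form of bovine parathyroid hormone (7-34) amide, written bPTH(7-34); and vehicle. The cells are not a clone or a line but a mixed primary culture, with a separate preparation for each replicate. How many mice went into a preparation, and whether one preparation was shared across the treatments, are not given in the sources used here.

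VEGF ligands are secreted dimers that drive the growth, survival and permeability of blood and lymph vessels. VEGF-A signals mainly through the kinase VEGFR2, the product of Kdr, while VEGFR1, the product of Flt1, binds VEGF-A, VEGF-B and placental growth factor tightly and can act as a decoy. VEGF-C acts mainly through VEGFR3 on lymph vessels, and the neuropilins are co-receptors without a kinase domain that also bind class 3 semaphorins. In bone, osteoblasts and their precursors are a source of VEGF-A, which couples vessel growth to bone formation, and Vegfa is a well known target of hypoxia-inducible factors. hPTH(1-34) activates Pth1r, the receptor of the hormone, and raises cAMP, and bPTH(7-34), which lacks the first residues of the hormone, is known as an antagonist of that rise. The doses of the peptides differ, so a difference between their groups is one between these conditions and not between peptides at one dose.

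The sequences upstream of the 2 members on which the results turn are given for orientation. They are the 250 bases before the annotated start of Vegfa (GRCm38.p6, chr17:46032378-46032627, minus strand) and of Nrp2 (GRCm38.p6, chr1:62703067-62703316, plus strand), from RefSeq, 5′ to 3′, with capitals marking matches of the GC box GGGCGG on either strand. Both windows lie just outside the annotated genes (Vegfa, chr17:46016993-46032377, and Nrp2, chr1:62703317-62818692).
Vegfa: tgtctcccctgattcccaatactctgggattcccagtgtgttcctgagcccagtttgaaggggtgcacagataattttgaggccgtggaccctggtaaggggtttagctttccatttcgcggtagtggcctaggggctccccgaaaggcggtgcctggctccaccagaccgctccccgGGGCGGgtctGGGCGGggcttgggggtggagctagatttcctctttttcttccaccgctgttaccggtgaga
Nrp2: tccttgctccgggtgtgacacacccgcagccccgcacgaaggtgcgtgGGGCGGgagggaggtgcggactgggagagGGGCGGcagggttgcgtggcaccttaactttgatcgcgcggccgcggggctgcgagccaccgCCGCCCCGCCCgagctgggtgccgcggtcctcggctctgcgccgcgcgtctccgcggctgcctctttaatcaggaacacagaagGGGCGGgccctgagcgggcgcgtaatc

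The Vegfa window held 2 GC boxes and the Nrp2 window 5, of which 2 overlap in the run CCGCCCCGCCC. A GC box was found in 32.7% of the 32851 upstream windows of 250 bases in the table. Neither window held the cAMP response element TGACGTCA (in 1.55% of all windows), its half-site TGACG (17.8%), the core ACGTG of sites for hypoxia-inducible factors (16.6%) or the NR4A monomer site AAAGGTCA (1.34%), each searched on both strands. Sequence farther than 250 bases upstream was not searched, so sites there would be missed. The window of another annotated start of Vegfa, inside the gene, held 1 half-site TGACG at 209 bases and 1 core ACGTG at 211 bases before that start, which overlap on the opposite strand, and 1 GC box, but no full element. Of the 8 genes, Flt1 alone had a full cAMP response element in an upstream window. It lies 81 bases before the start used, with both half-sites TGACG inside it, and is shown with its flanks (GRCm38.p6, chr5:147726075-147726102, minus strand; capitals mark the element).
Flt1: ggggacccctTGACGTCActggaaggag

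The deposited values were log2 expression after RMA normalisation, and array medians over all 41345 clusters ran from 1.67 to 1.76. There is no read depth for arrays, and precision is set by their number. As a limit of background, the vehicle means of 1105 olfactory receptor genes were taken, whose 95th percentile was 1.69 on the log2 scale. The brightest osteoblast markers were matrix genes, with means over the 9 arrays of 12.3 for the collagen gene Col1a1, 11.7 for Col1a2, 11.5 for Postn and 10.9 for Sparc. The others above the limit were lower, at 5.82 for Alpl, 4.67 for Pth1r, 3.69 for Ibsp and 3.27 for Phex. Of 11 measured osteoblast markers 3 lay under the background limit (Sp7, Bglap and Dmp1), so these 3 could not be followed. Of 15 endothelial markers 8 lay under the limit, among them Emcn, Cldn5, Tie1 and Vwf. Mmrn2 (1.72), Plvap (1.78), Pecam1 (1.87) and Cdh5 (1.91) lay little above it, and Erg (2.19), Egfl7 (2.70) and Tek (3.11) lay higher. All 11 macrophage and osteoclast markers lay above the limit, from 1.93 for the leukocyte gene Ptprc to 7.98 for the protease gene Ctsk. All 7 pericyte markers did so too, with Pdgfrb, also a gene of mesenchymal cells, at 8.73. In cultures of this kind, fewer cells of a type and less RNA per cell cannot be told apart.

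In the comparison of hPTH(1-34) with vehicle, the largest difference among the 8 genes was in Vegfa, which encodes VEGF-A. Its log2 level was 6.58, 6.56 and 6.52 with hPTH(1-34), 5.79, 5.02 and 5.26 with bPTH(7-34), and 5.79, 5.43 and 5.22 with vehicle. All 3 hPTH(1-34) arrays lay above all 6 other arrays, with a gap of 0.73 to the nearest of them, and they lay close together (SD 0.031), while the other groups were more spread (SD 0.39 with bPTH(7-34) and 0.29 with vehicle). The ratio of hPTH(1-34) to vehicle was 2.10-fold (log2 difference 1.07 ± 0.20 SE, 95% interval 0.62 to 1.52, n = 3 per group). Over all 23521 clusters tested it had limma adjusted p = 0.0691, so Vegfa missed the threshold of 0.05. Its difference was positive when arrays of one number were subtracted, at 0.79, 1.13 and 1.30. Vegfa included, 97 of the 23521 clusters had a positive difference at least as large.

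The call for Vegfa against vehicle varied with the clusters, arrays and settings of the fit. limma gave adjusted p = 0.0271 among clusters with a mean of at least 4, and from 0.0503 to 0.259 in 13 other alternatives, the exception being a fit with the array number as a block, which passed and is given among the processing alternatives. The log2 difference stayed between 0.94 and 1.23 in all 15 of them.

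**Figure D1:**
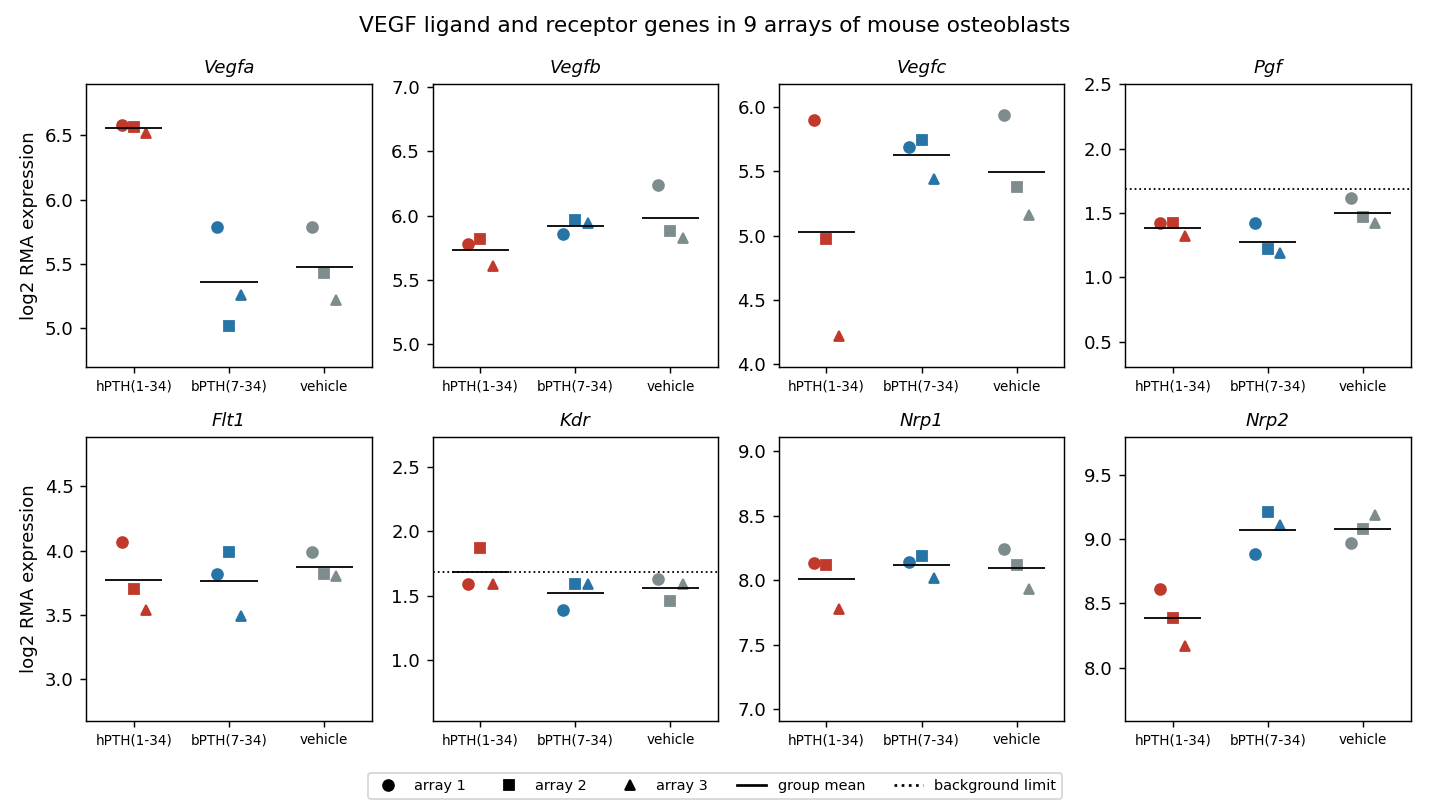
Log2 RMA expression (y axis, same span in each panel but different ranges) of the 8 genes with hPTH(1-34), bPTH(7-34) and vehicle; each point is an array, the bar the mean of 3, and the dotted line the background limit of 1.69. The 3 hPTH(1-34) arrays lie above all others for Vegfa and below all others for Nrp2 and Vegfb, while Pgf and nearly all Kdr values lie under the limit.

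The other ligand genes gave smaller or less steady differences. Vegfb, whose product binds VEGFR1 and is known for roles in fatty acid handling and cardiac vessels, had 5.78, 5.82 and 5.61 with hPTH(1-34), 5.86, 5.97 and 5.94 with bPTH(7-34), and 6.24, 5.88 and 5.83 with vehicle. The hPTH(1-34) arrays were the 3 lowest of 9, but only 0.01 separated them from the lowest vehicle array. The log2 difference from vehicle was -0.25 ± 0.12 (SE), with limma adjusted p = 0.594 and a 95% interval from -0.52 to 0.028. This interval excludes a rise of the size seen for Vegfa.

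Vegfc, the lymphangiogenic ligand gene, was the most variable member within a group. It had 5.90, 4.97 and 4.22 with hPTH(1-34), 5.69, 5.74 and 5.44 with bPTH(7-34), and 5.94, 5.38 and 5.16 with vehicle. Array 1 with hPTH(1-34) lay among the vehicle arrays, while arrays 2 and 3 lay under all vehicle arrays. The SD was 0.84 with hPTH(1-34) and 0.40 with vehicle, and the log2 difference of -0.46 ± 0.37 (SE) had limma adjusted p = 0.754. Without hPTH(1-34) array 1 the difference was -0.90, and without array 3 it was -0.058, so single arrays decided its size.

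Pgf encodes placental growth factor, a ligand of VEGFR1. Its level ran from 1.32 to 1.42 with hPTH(1-34), from 1.19 to 1.42 with bPTH(7-34) and from 1.42 to 1.62 with vehicle. All 9 values lay under the background limit, so no change could be measured for it. Vegfd, the remaining VEGF ligand gene of mammals, averaged 6.46 with hPTH(1-34), 6.66 with bPTH(7-34) and 6.69 with vehicle, and its difference of -0.23 ± 0.15 (SE) between hPTH(1-34) and vehicle did not pass (limma adjusted p = 0.692).

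Among the kinase receptor genes, Kdr lay at background. Its level was 1.59, 1.87 and 1.59 with hPTH(1-34), 1.39, 1.59 and 1.59 with bPTH(7-34), and 1.63, 1.46 and 1.59 with vehicle, so array 2 with hPTH(1-34) alone exceeded the limit of 1.69. Flt4, which encodes VEGFR3, averaged 3.77 with hPTH(1-34), 3.78 with bPTH(7-34) and 3.83 with vehicle, and its difference of -0.060 ± 0.087 (SE) between hPTH(1-34) and vehicle did not pass (limma adjusted p = 0.878).

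Flt1 was above the limit in every array, with 4.07, 3.70 and 3.54 with hPTH(1-34), 3.82, 3.99 and 3.49 with bPTH(7-34), and 3.99, 3.82 and 3.80 with vehicle. The 3 groups overlapped, and the difference between hPTH(1-34) and vehicle was -0.10 ± 0.16 (SE, limma adjusted p = 0.897, 95% interval -0.47 to 0.27). As a ratio to vehicle the interval spans 0.722 to 1.21, and changes within it are not excluded. The gene whose pattern was most like that of Flt1 over the 9 arrays, among 4884 genes with a mean of at least 5, was Cybb (Pearson r = 0.985), an NADPH oxidase subunit gene of phagocytes. Cybb ran from 5.52 to 8.29 with hPTH(1-34), from 5.71 to 7.84 with bPTH(7-34) and from 7.03 to 8.0 with vehicle, with array 1 the highest with hPTH(1-34) and with vehicle, and array 3 the lowest in each group. The summed linear level of the 11 macrophage and osteoclast markers was 398 to 569 with hPTH(1-34), 407 to 540 with bPTH(7-34) and 447 to 557 with vehicle. Without Ctsk, the brightest, the sum of the other 10 was 138 to 352, 135 to 273 and 173 to 329 in the same order. These markers thus varied among arrays within groups, and their part in the spread of Flt1 was not tested.

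The neuropilin genes gave unlike values. Nrp2, a co-receptor for VEGF-C and VEGF-A and a receptor of class 3 semaphorins, had 8.61, 8.39 and 8.17 with hPTH(1-34), 8.88, 9.21 and 9.11 with bPTH(7-34), and 8.97, 9.08 and 9.19 with vehicle. All 3 hPTH(1-34) arrays lay under the 6 others, with a gap of 0.36 to the lowest vehicle array. The level with hPTH(1-34) was 1.61-fold lower (log2 difference -0.69 ± 0.14 SE, 95% interval -0.99 to -0.39, n = 3 per group), with limma adjusted p = 0.0802. The difference was -0.36, -0.69 and -1.02 between arrays of one number. It stood past the threshold in 3 of 15 alternatives, namely among clusters with a mean of at least 4 (limma adjusted p = 0.0309), with array weights (0.0498) and without hPTH(1-34) array 1 (0.0344).

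Nrp1, the co-receptor of VEGF-A and VEGFR2, had 8.13, 8.12 and 7.78 with hPTH(1-34), 8.14, 8.19 and 8.02 with bPTH(7-34), and 8.24, 8.12 and 7.93 with vehicle. The groups overlapped, and array 3 was the lowest of each. The difference between hPTH(1-34) and vehicle was -0.087 ± 0.13 (SE, limma adjusted p = 0.877), and its 95% interval of -0.37 to 0.20 excludes a fall as large as the one measured for Nrp2.

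Counted over the 8 genes, 0 passed between hPTH(1-34) and vehicle in limma, with 2 (Vegfa and Nrp2) at an unadjusted p under 0.05. Over all clusters 106 of 23521 passed, or 0.451%, and 9.31% had an unadjusted p under 0.05. For 3 of the 8 genes the arrays of the groups did not overlap (Vegfa higher, Nrp2 and Vegfb lower), against 10.7% of all clusters. The median difference of the 8 was -0.11, against 0.00 over all clusters, and 2 of the 8 differences were positive, against 50.1% of all clusters. The median size of the difference was 0.19, against 0.11 over all clusters.

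**Figure D2:**
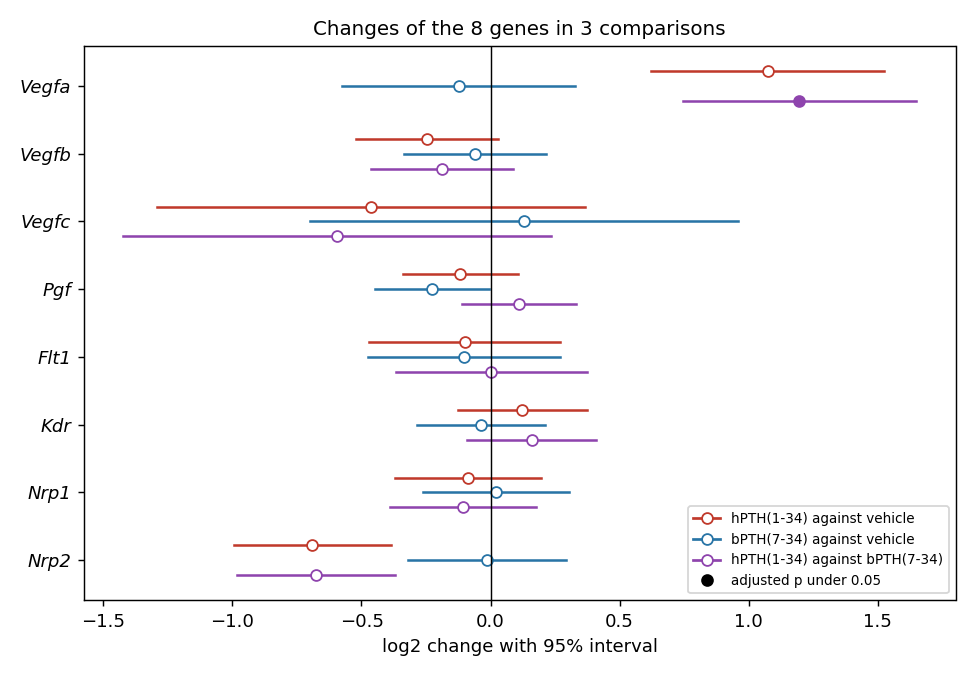
Log2 differences (x axis) of the 8 genes in 3 comparisons from limma, with 95% intervals as lines; a filled point has an adjusted p under 0.05. Vegfa between hPTH(1-34) and bPTH(7-34) is the single filled point, and the intervals of Vegfa and Nrp2 exclude 0 in both comparisons of hPTH(1-34).

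With bPTH(7-34), no member passed against vehicle. limma called 0 of the 8 genes, with 1 at an unadjusted p under 0.05 (Pgf, which lay under the background limit), and 0 of 23521 clusters in all (0%), of which 3.32% had an unadjusted p under 0.05. For 0 of the 8 genes the groups were separate, against 5.29% of all clusters. Vegfa differed from vehicle by -0.12 ± 0.20 (SE, 95% interval -0.57 to 0.33) and Nrp2 by -0.013 ± 0.14 (-0.32 to 0.29). These intervals exclude the differences of 1.07 and -0.69 measured with hPTH(1-34), and both comparisons share the vehicle arrays. For Vegfc the interval was wide, from -0.70 to 0.96, and for Nrp1 it ran from -0.26 to 0.30. As a ratio of bPTH(7-34) to vehicle the interval of Vegfa spans 0.672 to 1.26, and changes within it are not excluded with 3 arrays per group.

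The third comparison set the agonist group against the antagonist group. Here Vegfa was higher with hPTH(1-34), at 2.29-fold (log2 difference 1.20 ± 0.20 SE, 95% interval 0.75 to 1.65, n = 3 per group, limma adjusted p = 0.0446), and all 3 arrays lay above the 3 of bPTH(7-34). It was the only 1 of the 8 genes to pass, against 109 of 23521 clusters, or 0.463%, and 2 of the 8 had an unadjusted p under 0.05 (Vegfa and Nrp2), against 9.52% of all clusters. The call was lost in 7 of 15 alternatives. These were without hPTH(1-34) array 1, 2 or 3 (limma adjusted p = 0.0700, 0.176 and 0.162), without bPTH(7-34) array 2 or 3 (0.145 and 0.172), in a fit of all 41345 clusters (0.135) and in a fit of these 6 arrays alone (0.148). The log2 difference stayed between 1.03 and 1.41 in all 15.

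Nrp2 differed by -0.68 ± 0.14 (SE, limma adjusted p = 0.0856) between hPTH(1-34) and bPTH(7-34), with separate groups. Vegfb gave -0.19 ± 0.12 (limma adjusted p = 0.716), again with separate groups, by a gap of 0.04. In all, 3 of the 8 genes had separate groups, against 11.1% of all clusters. For the remaining 5 genes the differences lay between -0.59 (Vegfc) and 0.16 (Kdr), with limma adjusted p from 0.700 to 0.999.

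**Figure D3:**
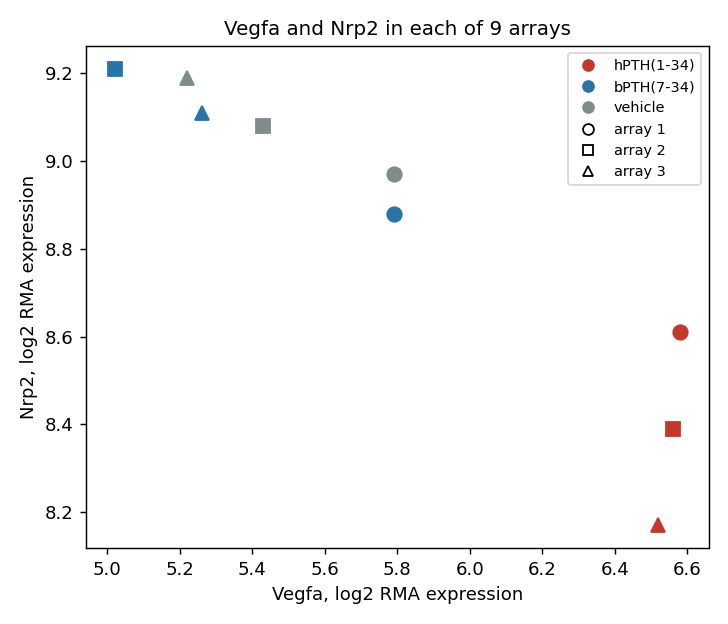
Log2 RMA expression of Vegfa (x axis) and Nrp2 (y axis) in each of the 9 arrays, coloured by group and shaped by array number. The 3 hPTH(1-34) arrays, with Vegfa from 6.52 to 6.58 and Nrp2 from 8.17 to 8.61, lie apart from the 6 others, with Vegfa at most 5.79 and Nrp2 at least 8.88.

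The genes nearest to Vegfa in pattern over the 9 arrays, by Pearson r among the same 4884 genes, were Dnaja3 (r = 0.978), a mitochondrial co-chaperone, Abcf3 (0.978), Thbd (0.975), Gpt2 (0.969) and Shc1 (0.967). These correlations are descriptions over arrays of 3 groups that share the treatment difference. Abcf3 averaged 5.25 with hPTH(1-34), 4.96 with bPTH(7-34) and 4.97 with vehicle, and Gpt2 5.59, 4.74 and 4.87. Both thus reached the mean of 5 only through the hPTH(1-34) arrays, and their place here is partly a product of that filter. Thbd, which encodes the anticoagulant receptor thrombomodulin, had 7.96, 7.56 and 7.61 with hPTH(1-34), 6.82, 6.15 and 6.12 with bPTH(7-34), and 6.91, 6.27 and 5.90 with vehicle. It thus had array 1 as its highest in each group, and its difference of 1.35 ± 0.27 (SE) from vehicle missed the threshold as Vegfa did (limma adjusted p = 0.0846). Gpt2, a mitochondrial transaminase gene, gave 0.71 ± 0.16 (limma adjusted p = 0.137).

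The most opposed patterns were those of Phip (r = -0.982), Cnn2 (-0.969), an actin-binding calponin gene, and Atxn1 (-0.967). Of these Cnn2 was lower with hPTH(1-34) than with vehicle past the threshold (-0.60 ± 0.096 SE, limma adjusted p = 0.0417). The pattern nearest to Nrp2 was that of Bmp4 (r = 0.985), a bone morphogenetic protein gene, with 5.76, 5.02 and 4.89 with hPTH(1-34), 6.27, 6.74 and 6.90 with bPTH(7-34), and 6.43, 6.69 and 6.79 with vehicle. The nearest to the other members above the limit were Pik3r2 for Vegfb (r = 0.952), Pnrc1 for Vegfc (0.973) and St3gal5 for Nrp1 (0.968).

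Further genes of VEGF biology were read in 15 lists of 167 gene symbols, older names included, of which 157 were measured. Among 16 proteins that bind, process or release VEGF, 1 fell with hPTH(1-34) against vehicle and 0 rose, with a median difference of 0.0017, and 0.14% of all clusters fell. The gene that fell was Thbs1, which encodes thrombospondin-1, a matrix protein known as an inhibitor of vessel growth. Its level was 10.38, 10.28 and 10.32 with hPTH(1-34), 10.97, 11.16 and 11.28 with bPTH(7-34), and 10.97, 11.25 and 11.02 with vehicle. All 3 hPTH(1-34) arrays lay under the 6 others. Thbs1 differed by -0.75 ± 0.11 (SE, limma adjusted p = 0.0338) from vehicle and by -0.81 from bPTH(7-34) (limma adjusted p = 0.0239). Against vehicle the call was lost in each fit without 1 array except that without hPTH(1-34) array 1, at adjusted p from 0.0545 to 0.159, and in the fits of all clusters (0.0980) and of the 6 arrays alone (0.0989). Against bPTH(7-34) it was lost in 6 of 15 alternatives, with adjusted p up to 0.120. In the same list Adamts3, a protease gene known for the processing of VEGF-C, gave 0.96 ± 0.25 (limma adjusted p = 0.201), with separate groups.

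Of 14 measured target genes of hypoxia-inducible factors 0 passed against vehicle in limma, with 3 at an unadjusted p under 0.05, all positive; the list median was 0.052. These were Hk2, a hexokinase gene (log2 difference 1.01 ± 0.19 SE, limma adjusted p = 0.0689), Ddit4, an mTOR inhibitor gene (0.88 ± 0.16, 0.0681), and Slc2a1, the glucose transporter GLUT1 gene (0.80 ± 0.27, 0.371). Against bPTH(7-34), Ddit4 rose (0.99, limma adjusted p = 0.0423), 1 of the 14 where 0.332% of all clusters rose. The call for Ddit4 was kept in 7 of 15 alternatives. The 8 genes of the pathway itself, such as Hif1a (9.34 with hPTH(1-34), 9.21 with bPTH(7-34) and 9.22 with vehicle), had 0 calls, a median of 0.095 and 0 genes at an unadjusted p under 0.05.

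**Figure D4:**
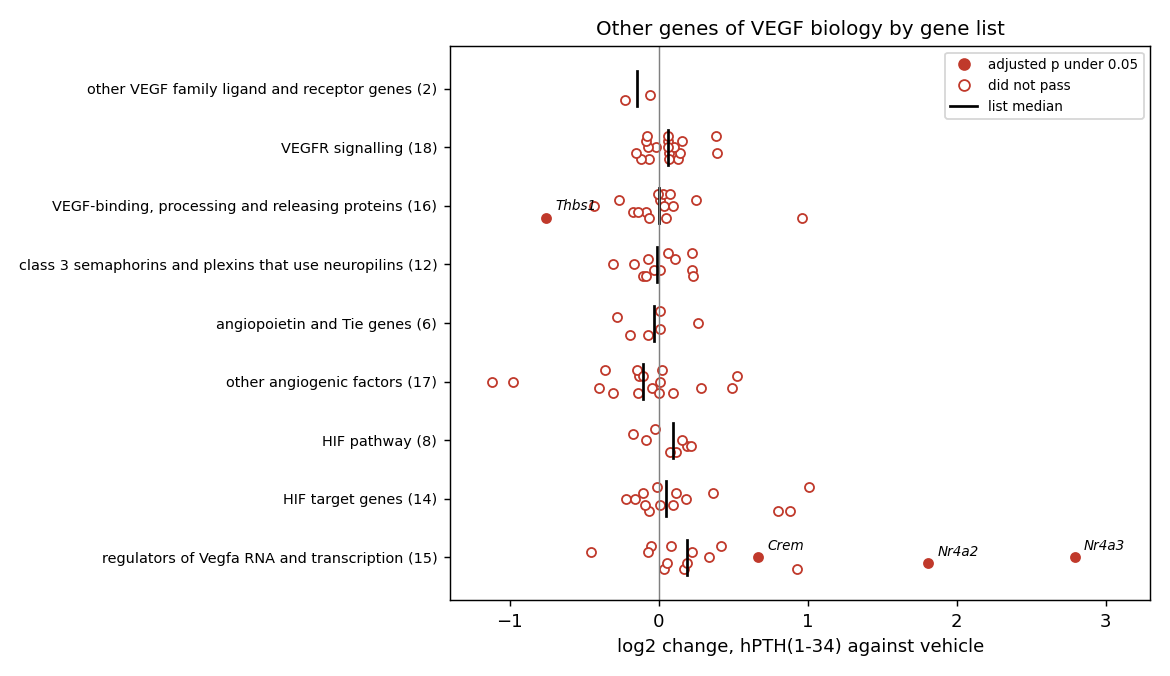
Log2 differences between hPTH(1-34) and vehicle (x axis) for the genes of 9 lists of VEGF biology, with the number measured in brackets; filled points have an adjusted p under 0.05 and bars mark list medians. Thbs1 is the single filled point below 0, and Nr4a3, Nr4a2 and Crem are those above it.

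In a list of 15 genes drawn up as possible regulators of Vegfa RNA or transcription, 3 rose with hPTH(1-34) against vehicle and 0 fell. The median difference was 0.19, and 0.31% of all clusters rose. The 3 genes were the orphan nuclear receptor genes Nr4a3 (2.79 ± 0.23 SE, limma adjusted p = 0.00556) and Nr4a2 (1.81 ± 0.21, 0.0149) and the cAMP-responsive factor gene Crem (0.67 ± 0.11, 0.0442). Against bPTH(7-34) 4 rose, the same 3 and Nr4a1 (1.11, limma adjusted p = 0.0335), where 0.332% of all clusters rose, and 0 fell. Nr4a1 gave 0.93 ± 0.17 (SE, limma adjusted p = 0.0638) against vehicle, and was among the 12 of the list that did not pass there. Against bPTH(7-34) the call was kept in 13 of 14 alternatives for Nr4a3, 9 of 15 for Nr4a2, 7 of 14 for Crem and 7 of 15 for Nr4a1, with adjusted p up to 0.0721, 0.0905, 0.146 and 0.145 in that order. The 15 for Nr4a1 include the fit of clusters with a mean of at least 4. Nr4a1 entered that fit only through hPTH(1-34) (4.91, against 3.80 with bPTH(7-34) and 3.98 with vehicle), so it gives no support for this gene. Against vehicle it was kept in 11 of 14 alternatives for Nr4a3, 9 of 15 for Nr4a2 and 5 of 14 for Crem. Without 1 array the limma adjusted p against vehicle reached 0.0673 for Nr4a3, 0.110 for Nr4a2 and 0.201 for Crem. That hPTH(1-34) raises cAMP-responsive genes in these arrays was known when the list was drawn up, so these calls are no independent support. Whether genes of the list act on Vegfa in these cells was not tested.

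The remaining lists had no call in any comparison. Against vehicle, hPTH(1-34) gave a median difference of 0.062 for 18 genes of VEGF receptor signalling, where the adaptor genes Shc1 (0.39 ± 0.11 SE, limma adjusted p = 0.249) and Shb (0.39 ± 0.16, 0.492) were the 2 with an unadjusted p under 0.05. For 12 class 3 semaphorin and plexin genes, which encode the other partners of the neuropilins, the median was -0.012, and 1 had an unadjusted p under 0.05 (Plxna1, -0.31 ± 0.099, limma adjusted p = 0.340). For 6 angiopoietin and Tie genes it was -0.032, with 0 at an unadjusted p under 0.05. Among 17 other angiogenic factors, with a median of -0.11 and 4 at an unadjusted p under 0.05, Fgf2 gave 0.49 ± 0.10 (limma adjusted p = 0.103) and the Notch ligand gene Jag1 -0.98 ± 0.21 (0.106). In the same list Apln, a peptide ligand of endothelial cells, gave 0.53 ± 0.19 (limma adjusted p = 0.429), and the platelet-derived growth factor gene Pdgfc gave -0.36 ± 0.16 (0.533).

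Markers of other cell types were read beside these values. The summed linear level of 15 endothelial markers was 52.8 to 56.8 with hPTH(1-34), 53.9 to 64.4 with bPTH(7-34) and 55.4 to 59.8 with vehicle, with a median difference between hPTH(1-34) and vehicle of -0.040. Mmrn2, the 1 endothelial marker with an unadjusted p under 0.05, averaged 1.51 with hPTH(1-34), under the background limit, and 1.84 with vehicle (limma adjusted p = 0.513). For 3 lymphatic endothelial markers the sums were 18.0 to 20.5 with hPTH(1-34), 19.0 to 19.2 with bPTH(7-34) and 18.4 to 20.3 with vehicle (median difference 0.090), and Prox1 lay under the background limit. The sum of 7 pericyte markers was 241 to 489 with hPTH(1-34), 512 to 618 with bPTH(7-34) and 491 to 634 with vehicle, lowest in the hPTH(1-34) arrays, but most of it was Pdgfrb (-0.82 ± 0.28 SE against vehicle, limma adjusted p = 0.379). Without Pdgfrb the sum of the other 6 was 55.6 to 62.9 with hPTH(1-34), 57.6 to 60.3 with bPTH(7-34) and 48.6 to 60.2 with vehicle. The list as a whole had a median difference of -0.030, with 3 genes positive and 4 negative. Of these Mcam (0.47 ± 0.16 SE, limma adjusted p = 0.364) and Kcnj8 (0.72 ± 0.26, 0.427) were higher in all 3 hPTH(1-34) arrays than in any vehicle array. The same held for 6.08% of all clusters. Both also averaged higher with bPTH(7-34) than with vehicle, by 0.53 for Mcam and 0.42 for Kcnj8 (limma adjusted p = 0.999 for each). Nrp2 was lowest in the same arrays as Pdgfrb, and the part of these markers in its values was not tested. The sum of 7 adipocyte markers was 422 to 738 with hPTH(1-34), 366 to 532 with bPTH(7-34) and 347 to 445 with vehicle (median difference 0.38), with Fabp4 at 0.85 ± 0.26 (SE, limma adjusted p = 0.299) and Plin1 at 0.54 ± 0.21 (0.454). Without Fabp4, the brightest, the sum of the other 6 was 213 to 339, 191 to 294 and 206 to 240 in the same order, so the groups overlapped. Median differences were -0.010 for the macrophage and osteoclast markers and 0.00 for the osteoblast markers, of which Alpl gave 0.97 ± 0.17 (SE, limma adjusted p = 0.0601).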

How the data were processed

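The deposited values are log2 expression per transcript cluster, made by the authors with Affymetrix Expression Console and RMA, per the submitters' processing notes, and hold 2 decimals. Versions and the genome build are not given in the sources used here. Of 41345 clusters, 23521 had a single symbol in the platform annotation, 1814 several and 16010 none. The 8 genes all matched RefSeq (GRCm38.p6), which supplied positions and upstream windows. limma 3.58.1 in R 4.3.3 (lmFit, eBayes) was fitted to all 9 arrays, with a term for group and no other (6 residual and 3.20 prior degrees of freedom), two-sided, with Benjamini-Hochberg adjustment over the 23521 clusters and a threshold of 0.05. A gene with several clusters was read from the brightest. The fit was tested on simulated data with independent noise in each array, which lack the likeness of same-numbered arrays described below. The members, the 15 lists, the tests and the background limit were chosen with earlier results of these data known. Genes of a list are named where they passed or were among its 4 smallest p values for hPTH(1-34) against vehicle and under 0.05 unadjusted; other markers are named for their levels alone. Vegfd and Flt4 were named as the family's remaining members, and Hif1a after its values were seen. Alternatives were a block for the array number, other sets of clusters, 2 rescalings, other variance settings, the 6 arrays alone and each array left out. The p-values set each difference against the spread between arrays within groups. Whether same-numbered arrays share a preparation is not known. Plots used matplotlib 3.10.9 in Python 3.11.15.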

Additional observations from a re-analysis of the deposited data

How the results depend on the processing

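The number of VEGF genes past the threshold was 0 between hPTH(1-34) and vehicle. It was 1 with the replicate block (Vegfa, log2 difference 1.07, limma adjusted p = 0.0460), 2 among clusters with a mean of at least 4 (Vegfa, 1.07, and Nrp2) and 1 with array weights (Nrp2), and from 0 to 1 without single arrays. Between hPTH(1-34) and bPTH(7-34) it was 1, against 0 in a fit of all clusters, 2 among clusters with a mean of at least 4, 2 with array weights, 0 for the 6 arrays alone, and 0 to 1 without single arrays. Between bPTH(7-34) and vehicle it was 0 in each alternative. The count over all clusters between hPTH(1-34) and vehicle was 106, against 16 with all clusters tested, 201 among those with a mean of at least 4, 166 with array weights, 0 for the 6 arrays alone (1936 at an unadjusted p under 0.05, limma) and 0 to 259 without single arrays. Between hPTH(1-34) and bPTH(7-34) it was 109, against 3, 240, 204, 0 (2066 unadjusted) and 2 to 262 in the same order. The highest counts without single arrays, 259 and 262, came without hPTH(1-34) array 1. The other omissions gave at most 72 against vehicle and at most 48 against bPTH(7-34). The cause of these shifts was not tested.

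The replicate numbers were not taken to pair the arrays, since the labels do not say so. Deviations from group means correlated above 0.1 in 6 of 9 same-numbered pairs of arrays (from 0.065 to 0.364). Of 18 pairs with different numbers, 1 did so (from -0.294 to 0.138). Over clusters with a mean of at least 4 it was 8 of 9 same-numbered pairs (from 0.080 to 0.557). Pairs with different numbers there ran from -0.530 to 0.201. As a hint from the data alone, 8 of 9 arrays correlated best with an array of their own number over all clusters tested. Over clusters with a mean of at least 4 this held for 6 of 9. Same-numbered arrays were thus more alike than others, and whether they share a preparation was not tested. Over the genes it was fitted for, the block moved no other VEGF gene past the threshold and kept Vegfa between hPTH(1-34) and bPTH(7-34) (limma adjusted p = 0.0300).

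Genes that did not pass changed sign in some fits. Flt1 between hPTH(1-34) and bPTH(7-34) was 0.0033, against -0.026 after quantile normalization, -0.042 with array weights and -0.15 to 0.12 without single arrays. Without single arrays, the differences between hPTH(1-34) and vehicle ran from -0.25 to 0.015 for Flt1 and from -0.17 to 0.028 for Nrp1, and Nrp1 between hPTH(1-34) and bPTH(7-34) from -0.17 to 0.0083. Those between bPTH(7-34) and vehicle ran from -0.34 to 0.045 for Vegfa, -0.14 to 0.068 for Vegfb, -0.037 to 0.35 for Vegfc, -0.22 to 0.035 for Flt1, -0.087 to 0.030 for Kdr, -0.063 to 0.092 for Nrp1 and -0.085 to 0.080 for Nrp2. No background correction, detection call or scan batch could be varied from these files.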
